A study of Mus musculus with 6 samples.

Results

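The unfolded protein response (UPR) and the chaperones of the endoplasmic reticulum (ER) were followed here in the luminal epithelium of the mouse uterus, through 34 genes chosen by name. They are 10 genes grouped with the ATF6 branch of the response, 12 with the IRE1 branch, 6 with the PERK branch and 6 further folding enzymes; many of them answer to more than 1 branch, so the grouping is a convenience. A gene was read from every array feature (probe) whose symbol, or whose RefSeq record, named it. A total of 61 features did so, and 28 of the 34 genes had a feature above background, defined as a detection p-value under 0.05, on at least 3 of 6 arrays. The whole array gave 11939 genes by the same filter.

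RNA came from epithelium collected at 3.5 days post coitum (dpc), when the embryo is about to attach, and was hybridised to 6 arrays of 1 Illumina bead chip. The 3 CKO arrays (D, E and F) carried samples from Alk3flox/flox Pgrcre/+ females, in which Cre expressed from the progesterone receptor locus removes exon 2 of Alk3 (Bmpr1a), which encodes a receptor kinase of BMP signalling. The 3 Control arrays (A, B and C) carried samples labelled only as control, with no genotype given in the sources used here. All mice had a hybrid C57BL/6J and 129S5/SvEvBrd background; their ages, and whether each array stands for 1 animal, are not stated, so each p-value reflects only how far these samples spread, which may be technical. Progesterone receptor is also made outside the luminal epithelium, so the deletion is not limited to the cells measured, and chip position and group cannot be told apart because A to C were all Control.

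The ER folds secreted and membrane proteins. When unfolded proteins build up, 3 sensors in its membrane respond: ATF6 is cut to free a transcription factor, IRE1 (Ern1) splices Xbp1 mRNA into its active form, and PERK (Eif2ak3) slows translation while ATF4 is made. Their targets add chaperones, disulfide enzymes and the machinery of ER-associated degradation, in which misfolded proteins are passed back to the cytosol. A secretory epithelium such as that of the uterus uses the same chaperones in its ordinary work. An array of this kind measures transcript level and not the splicing of Xbp1, the cleavage of ATF6 or phosphorylation.

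Some of the members' promoters hold a sequence that is known from target genes of the response. The members were chosen by name as genes of that response, so its share among them is not an independent finding. The ER stress response element (ERSE), bound by ATF6 and XBP1 together with NF-Y, was searched as CCAAT followed after 9 bases of any kind by CCACG, on both strands. RefSeq windows (GRCm38.p6) running from 250 bases before to 50 bases after each start site were available for 30 of the 34 members, the exceptions being Atf6, Manf, Hyou1 and Derl1. An ERSE lay in the windows of 10 of these 30 (33.3%), against 37 of 27025 genes over all windows (0.137%). Read in the direction of the gene and with the paired boxes in capitals, 8 of the 10 are the following, where a reversed element reads CGTGG first and ATTGG last.
Hspa5, chr2:34772015-34772053, plus strand: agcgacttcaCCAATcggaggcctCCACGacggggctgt
Calr, chr8:84847065-84847103, minus strand: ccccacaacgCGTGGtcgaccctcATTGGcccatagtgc
Derl3, chr10:75893232-75893270, plus strand: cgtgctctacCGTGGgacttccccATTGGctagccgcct
Canx, chr11:50325790-50325828, minus strand: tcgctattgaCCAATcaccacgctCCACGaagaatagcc
Pdia6, chr12:17266481-17266519, plus strand: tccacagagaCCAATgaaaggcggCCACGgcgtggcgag
Dnajc3, chr14:118937817-118937855, plus strand: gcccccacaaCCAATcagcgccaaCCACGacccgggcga
Creld2, chr15:88819510-88819548, plus strand: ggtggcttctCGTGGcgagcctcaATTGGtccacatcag
Syvn1, chr19:6046522-6046560, plus strand: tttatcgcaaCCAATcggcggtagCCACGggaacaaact

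The other 2 members with an ERSE were Hsp90b1, which holds 2 copies in opposite orientation, and Ero1lb, the member with the smallest unadjusted p in the comparison below. The related ERSE-II (ATTGG, 1 base of any kind, CCACG) lay in the windows of Herpud1 and Dnajb11, 2 of 30 members (6.67%), against 0.0444% of all genes, and overlapped no ERSE. These whole windows are shown with each element, spacer included, in capitals.
Hsp90b1, chr10:86705395-86705694, minus strand: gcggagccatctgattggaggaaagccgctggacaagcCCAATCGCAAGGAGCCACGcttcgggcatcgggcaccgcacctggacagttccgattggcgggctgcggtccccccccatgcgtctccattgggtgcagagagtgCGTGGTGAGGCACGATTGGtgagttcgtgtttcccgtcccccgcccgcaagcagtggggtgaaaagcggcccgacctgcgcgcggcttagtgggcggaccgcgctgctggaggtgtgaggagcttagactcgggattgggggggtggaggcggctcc
Ero1lb, chr13:12565633-12565932, plus strand: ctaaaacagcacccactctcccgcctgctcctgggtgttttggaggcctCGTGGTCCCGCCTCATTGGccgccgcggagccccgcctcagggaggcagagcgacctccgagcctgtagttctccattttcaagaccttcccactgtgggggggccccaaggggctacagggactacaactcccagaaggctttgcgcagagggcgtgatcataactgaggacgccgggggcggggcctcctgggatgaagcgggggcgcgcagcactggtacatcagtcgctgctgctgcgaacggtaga
Dnajb11, chr16:22857595-22857894, plus strand: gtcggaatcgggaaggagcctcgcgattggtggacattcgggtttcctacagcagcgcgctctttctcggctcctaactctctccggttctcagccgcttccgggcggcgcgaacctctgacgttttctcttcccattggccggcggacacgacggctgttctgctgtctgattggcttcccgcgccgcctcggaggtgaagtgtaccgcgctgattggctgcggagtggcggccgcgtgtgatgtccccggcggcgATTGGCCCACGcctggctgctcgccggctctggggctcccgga

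All 11 ERSE copies lay upstream of the start site, by 44 (Syvn1) to 212 bases (the farther copy of Hsp90b1), counted to the first base of the element. The UPR element of XBP1, TGACGTGG, was in no member window and in 0.714% of all genes. An ATF4 site was searched only as TGATGNAAT, with T as its last base. That exact string was in no member window and in 1.08% of all genes. Sequences that differ only in the last base were not searched, and the Herpud1 window holds such a sequence, ending in C, on the opposite strand. The search therefore does not show that member windows lack an ATF4 site. A match describes letters in these windows and says nothing of binding.

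No member passed the test between CKO and Control. By limma's moderated test with Benjamini-Hochberg adjustment over all genes, 0 of the 28 members were higher in CKO and 0 were lower, where the whole array gave 2 genes higher (0.0168% of those tested) and 0 lower (0%). The smallest adjusted p of a member was 0.977. An unadjusted p under 0.05 was reached by 2 members, Ero1lb and Ppp1r15a, which is 7.14% of members against 4.72% of all genes. All 3 CKO arrays lay above all 3 Control arrays for 2 members, Ppp1r15a and Dnajb11 (7.14%, against 5.64% of all genes), and below them for 1, Ero1lb (3.57%, against 5%). These shares are near those of the whole array.

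The mean was higher in CKO for 20 of 28 members (71.4%), against 48.3% of all genes, with a median log2 difference of 0.111 for members and -0.011 for all genes. Against the median of all genes, 20 of 28 members lay higher, and 21 of 28 did with median scaling. That scaling lowers all genes together, to a median of -0.077 with 39.0% of them above 0, so that 15 of 28 members were then above 0. With array weights 16 of 28 were above 0, and 17 of 28 above the median of all genes. Without CKO array E, 15 of 27 were higher with a median of 0.038. In that setting 52.5% of all genes were above 0 with a median of 0.017, and 14 of 27 members lay above that median. Leaving out other arrays gave 17 of 28 members above 0 without A (median 0.11), 17 of 27 without B (0.167) and 19 of 28 without C (0.095). It gave 20 of 28 without D (0.167) and 19 of 27 without F (0.197). Members above the median of all genes then numbered 17, 18, 19, 20 and 20, in that order.

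**Figure D1:**
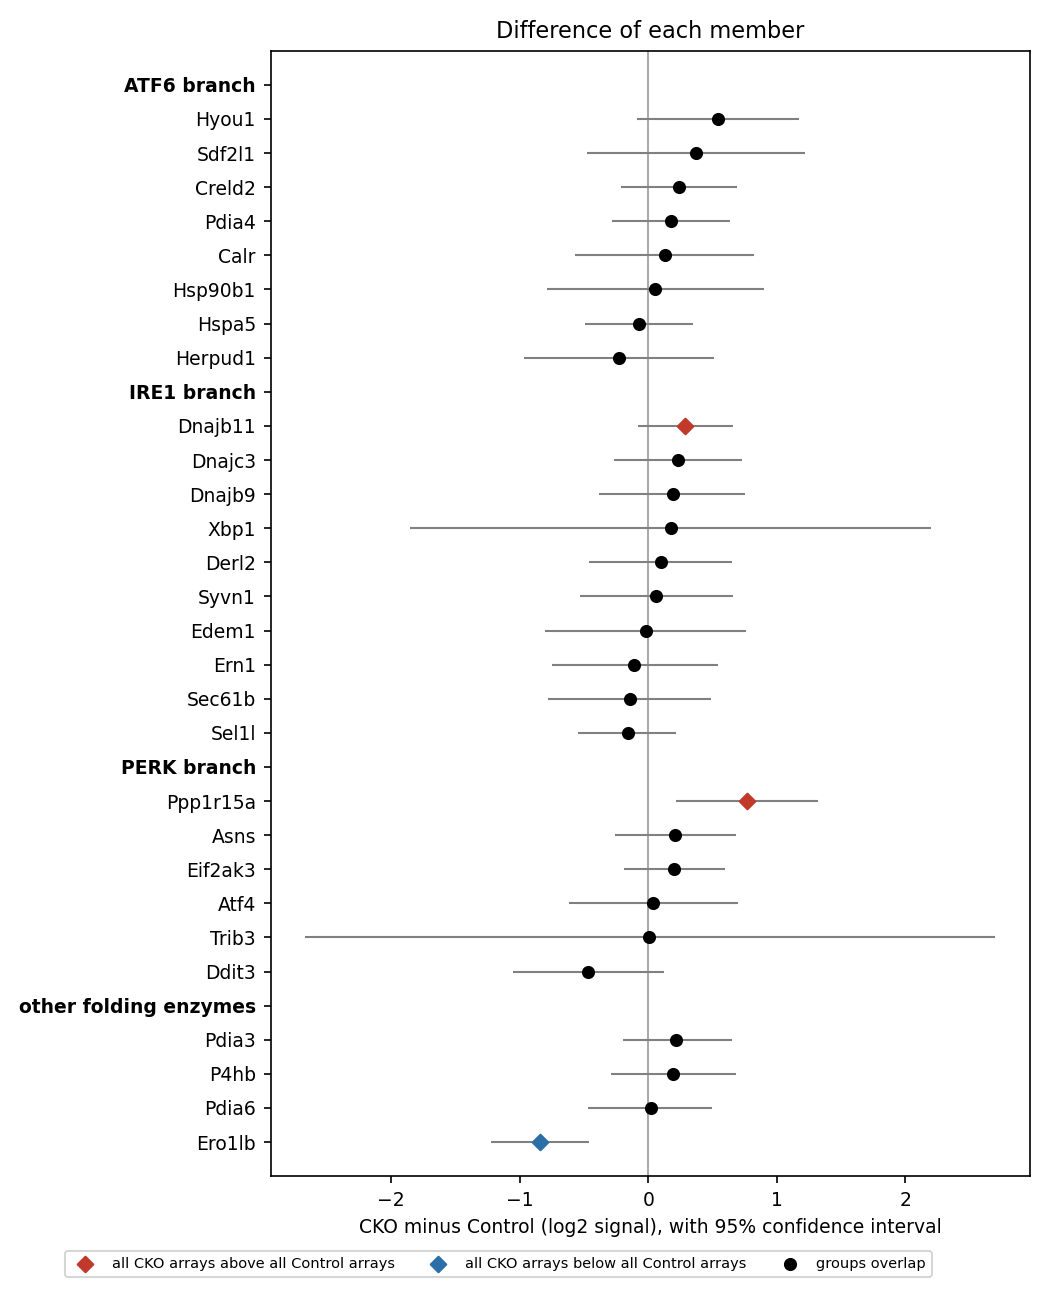
Difference of each tested member between CKO and Control on the log2 signal scale, by branch, with points for the difference and bars for limma's 95% confidence interval; diamonds mark members whose groups do not overlap. Most intervals span 0, those of Ppp1r15a and Ero1lb do not, and Xbp1 and Trib3 have the widest. Of the 28 differences 20 lay above 0 and 20 above the median of all genes; with median scaling, which lowers all genes, 15 lay above 0 and 21 above that median.

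By branch, 6 of 8 tested ATF6 members were higher in CKO with a median difference of 0.151, 6 of 10 IRE1 members with 0.080, 5 of 6 PERK members with 0.124 and 3 of 4 other folding enzymes with 0.106. Members with an exact ERSE gave 6 of 8 higher and a median of 0.060. Members with a window but no exact ERSE gave 13 of 19 higher and a median of 0.177, and they include Herpud1 and Dnajb11, which hold an ERSE-II. None of these medians was tested.

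The member with the smallest unadjusted p was Ero1lb (Ero1b), an ER oxidase that passes oxidising power to protein disulfide isomerases. Its normalised log2 signal was 5.01, 5.21 and 4.98 on CKO arrays D, E and F, and 5.81, 5.92 and 5.99 on Control arrays A, B and C. Every CKO array lay below every Control array, and the mean was 5.07 ± 0.13 in CKO and 5.91 ± 0.09 in Control (SD, n = 3 each). The log2 difference was -0.84 (SE 0.16, 95% confidence interval -1.22 to -0.46), and the adjusted p was 0.977. The exact permutation p was 0.1, and a design of 3 against 3 arrays cannot go lower. Its feature was above background on 1 CKO array and on 3 Control arrays, so the CKO level is close to the lowest signal above background, which was 5.02 to 5.13 over the 6 arrays. A further Ero1lb feature was below background on all arrays and differed by -0.002. With all arrays kept, the difference ran from -0.91 to -0.37 over the other settings. The related oxidase Ero1l (Ero1a) was below background on all 6 arrays.

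Among the PERK branch, the clearest separation was in Ppp1r15a (GADD34), which recruits a phosphatase to restart translation and is also an immediate response gene to many stresses. It had log2 signals of 10.90, 11.25 and 10.72 in CKO, against 10.52, 9.97 and 10.06 in Control. The groups did not overlap, with array E the highest and Control A the nearest to the CKO arrays. The log2 difference was 0.77 (SE 0.23, 95% confidence interval 0.22 to 1.32), or 1.71-fold, with an exact permutation p of 0.1 and an adjusted p of 0.977. It ran from 0.62 to 0.94 when single arrays were left out.

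Ddit3 (CHOP), a transcription factor downstream of ATF4, went the other way on average. It had 7.12, 6.69 and 7.35 in CKO, against 7.48, 7.26 and 7.83 in Control, so that CKO F lay above Control B and the groups overlapped. The log2 difference was -0.47 (SE 0.25, 95% confidence interval -1.05 to 0.12, adjusted p 0.977), and -0.10 at its smallest over the other settings. The other Ddit3 feature differed by -0.78, with CKO values of 6.25, 5.13 and 6.03 and Control values of 6.53, 6.31 and 6.92; there the groups did not overlap.

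The sensor of this branch, Eif2ak3 (PERK), had 5.60, 5.28 and 5.41 in CKO, against 5.30, 5.15 and 5.23 in Control. Only CKO E fell within the Control range, and the difference was 0.20 (95% confidence interval -0.19 to 0.60). All 6 values were near the lowest signal above background, and the difference was 0.085 with no background correction. The other Eif2ak3 feature was below background on all arrays. Atf4 itself, the transcription factor made when PERK slows translation, had 11.36, 11.14 and 10.66 in CKO, against 11.45, 10.81 and 10.77 in Control. Its groups overlapped fully, with a difference of 0.04, and its other feature differed by -0.37. Asns, the asparagine synthetase gene and an ATF4 target, had 10.60, 10.97 and 10.77 in CKO, against 10.72, 10.70 and 10.30 in Control. The difference was 0.21 (SE 0.20). A further Asns feature above background on all arrays gave 8.63, 9.63 and 8.95 in CKO, against 8.47, 8.73 and 8.38 in Control, a difference of 0.54.

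Trib3, a pseudokinase induced by ATF4 and CHOP, varied most among the members. It had 5.77, 10.12 and 6.12 in CKO, against 7.79, 6.71 and 7.48 in Control. CKO array E lay above all Control arrays while D and F lay below them, so the difference of 0.01 had an SE of 1.12 and a 95% confidence interval of -2.67 to 2.70. Without array E the difference was -1.39. The 2 other Trib3 features were above background on array E alone, at 7.15 and 7.12 on the log2 scale.

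In the IRE1 branch, the sensor Ern1 (IRE1) had 7.98, 7.79 and 7.33 in CKO, against 8.25, 7.54 and 7.65 in Control. Its groups overlapped, and the difference was -0.11 (95% confidence interval -0.75 to 0.54). One feature of the paralog Ern2 lists Ern1 as a synonym; RefSeq names it Ern2, and it was not counted. Xbp1, whose mRNA IRE1 splices, had 11.25, 14.28 and 11.41 in CKO, against 12.87, 12.15 and 11.39 in Control. Array E was the highest of all 6 and array D the lowest, both CKO, and the difference was 0.18 (SE 0.85, 95% confidence interval -1.85 to 2.20). Without array E it was -0.81.

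The 3 co-chaperones of the branch had higher means in CKO, and for Dnajc3 and the main feature of Dnajb9 this rested on array E. Dnajb11 (ERdj3), a co-chaperone that hands unfolded proteins to BiP, had 11.05, 11.16 and 11.15 in CKO, against 10.77, 10.97 and 10.75 in Control. The groups did not overlap, and the difference was 0.29 (SE 0.16, 95% confidence interval -0.08 to 0.66), or 1.22-fold, with an exact permutation p of 0.1 and an adjusted p of 0.977. Dnajb9 (ERdj4), an XBP1 target, had 10.23, 10.91 and 10.54 in CKO, against 10.65, 10.30 and 10.17 in Control. These groups overlapped, with a difference of 0.19 (SE 0.24) that was 0.01 without array E. A further Dnajb9 feature had 8.06, 7.89 and 8.14 in CKO, against 8.11, 7.74 and 7.94 in Control. That feature differed by 0.11, and array E was its lowest CKO array. Dnajc3 (p58IPK), a co-chaperone and inhibitor of PERK, had 9.01, 9.61 and 9.06 in CKO, against 8.92, 9.05 and 9.03 in Control. Its difference of 0.23 came down to 0.04 without array E.

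None of the degradation and translocation genes of the branch passed the test, and their intervals were wide. Sel1l, the adaptor of the ubiquitin ligase HRD1, had 8.36, 8.48 and 8.51 in CKO, against 8.46, 8.74 and 8.64 in Control. The difference was -0.16 (95% confidence interval -0.55 to 0.22), and a further Sel1l feature differed by -0.51, with array E the lowest. Sec61b, a subunit of the protein-conducting channel, had 9.92, 10.65 and 10.87 in CKO, against 10.60, 10.63 and 10.65 in Control. The Control arrays were nearly equal and array D stood below the rest, so the difference of -0.14 became 0.14 without D. Edem1, a lectin that sorts misfolded glycoproteins, had 4.70, 5.45 and 5.08 in CKO, against 4.60, 5.66 and 5.02 in Control. It was above background on 2 CKO arrays and 1 Control array, and the difference was -0.02. Syvn1 (HRD1) and Derl2 differed by 0.06 and 0.10 with overlapping groups, and Derl1 and Derl3 were below background on all arrays.

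**Figure D2:**
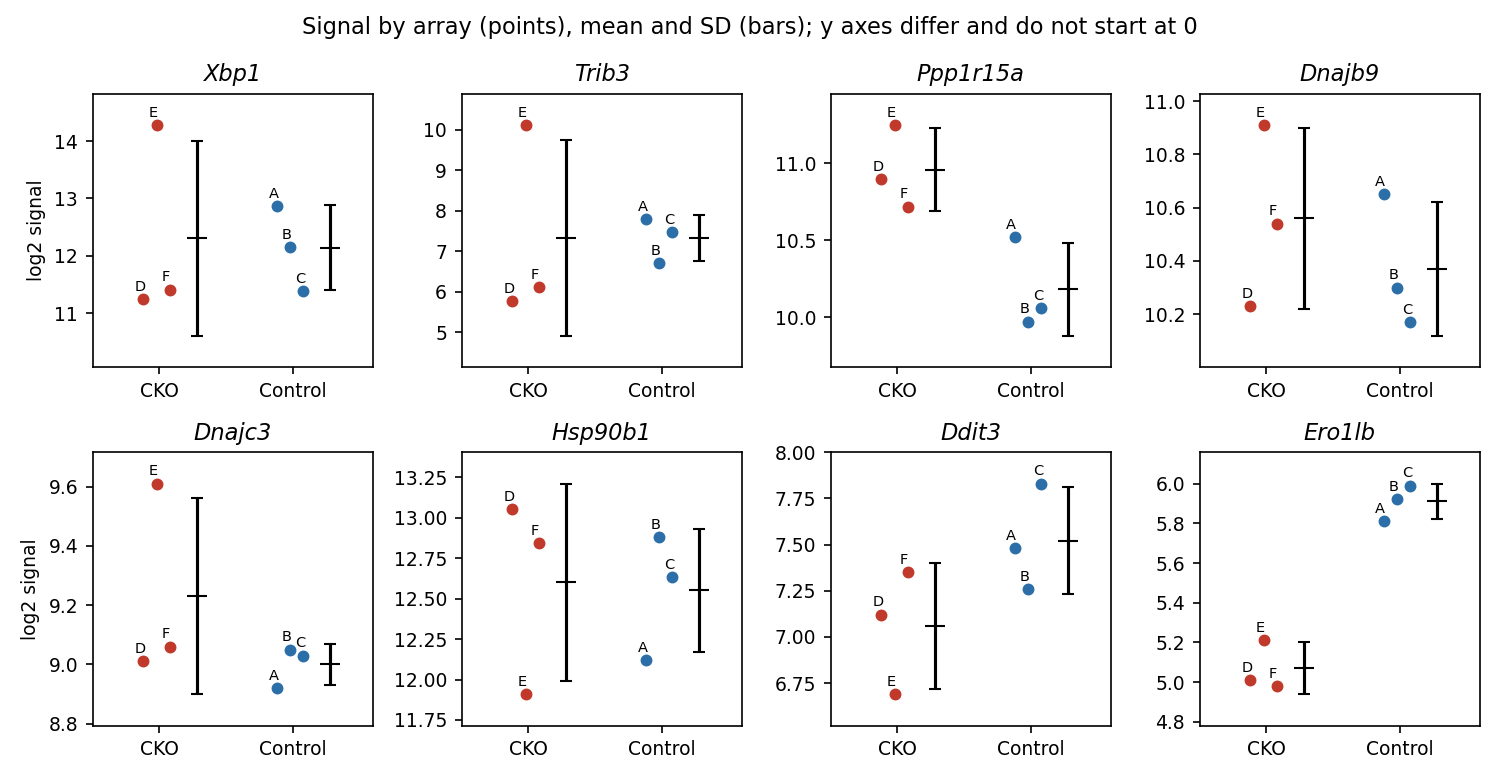
Normalised log2 signal of 8 members on each array, with CKO arrays D, E and F in red left of Control arrays A, B and C in blue, and the mean with its SD beside each group. Ppp1r15a lies higher and Ero1lb lower on every CKO array, while Xbp1 (14.28) and Trib3 (10.12) are high on CKO array E only among the CKO arrays.

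The ATF6 branch holds the main chaperones. Its sensor Atf6 was below background on all 6 arrays by both features. Hspa5 (BiP), the principal ER chaperone, was read by a single feature that was above background on all arrays but near the lowest such signal. It had 5.12, 5.29 and 5.46 in CKO, against 5.28, 5.26 and 5.53 in Control. The groups overlapped, and the difference was -0.07 (95% confidence interval -0.49 to 0.35). Signal over background therefore limits what this array shows of Hspa5.

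Hsp90b1 (GRP94), which folds integrins and Toll-like receptors, had 13.05, 11.91 and 12.84 in CKO, against 12.12, 12.88 and 12.63 in Control. Array D was the highest and array E the lowest, both CKO, and the difference was 0.05 (95% confidence interval -0.79 to 0.90). Calr, the calcium-binding lectin chaperone calreticulin, had 9.31, 9.87 and 9.92 in CKO, against 9.07, 9.90 and 9.75 in Control. The groups overlapped and the difference was 0.13. Pdia4 (ERp72), a disulfide isomerase, had 9.87, 10.05 and 9.71 in CKO, against 9.44, 9.87 and 9.78 in Control, a difference of 0.18 (SE 0.19).

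Hyou1 (GRP170), an exchange factor for BiP, had 7.55, 7.32 and 6.66 in CKO, against 6.42, 6.75 and 6.73 in Control. Arrays D and E lay above all Control arrays and F within them. The log2 difference of 0.54 (SE 0.26, 95% confidence interval -0.09 to 1.17) was the second highest among the members, with an exact permutation p of 0.3 and an adjusted p of 0.977, and it was 0.12 with array weights. Creld2, a secreted ER stress protein, had 9.78, 9.66 and 9.88 in CKO, against 9.27, 9.76 and 9.57 in Control. Its difference was 0.24 by the main feature, with overlapping groups, and 0.29 by the other. That other feature had 9.67, 9.59 and 9.72 in CKO, against 9.28, 9.43 and 9.40 in Control, without overlap.

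Herpud1, which organises the HRD1 complex, had 9.65, 10.58 and 9.84 in CKO, against 10.63, 10.23 and 9.91 in Control. CKO D and F lay below all Control arrays and E within them, and the difference was -0.23 by the main feature and -0.44 by the other. The first was -0.05 without A and without D, and -0.51 without E. Sdf2l1, a partner of ERdj3, differed by 0.37 with overlapping groups, by 0.11 without A and by 0.68 without B. Manf was below background on all arrays.

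Of the remaining folding enzymes, Pdia3 (ERp57), which acts with calreticulin and calnexin, had 12.45, 12.26 and 12.28 in CKO, against 11.88, 12.31 and 12.12 in Control. Its groups overlapped, with a difference of 0.22 (95% confidence interval -0.20 to 0.65). P4hb (PDI) and Pdia6 differed by 0.19 and 0.02, also with overlap. The single feature for Canx, the membrane lectin calnexin, was below background on all arrays, so that 6 members (Atf6, Manf, Derl1, Derl3, Canx and Ero1l) had no measurable level. A feature below background can fail to report a transcript that is present.

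**Figure D3:**
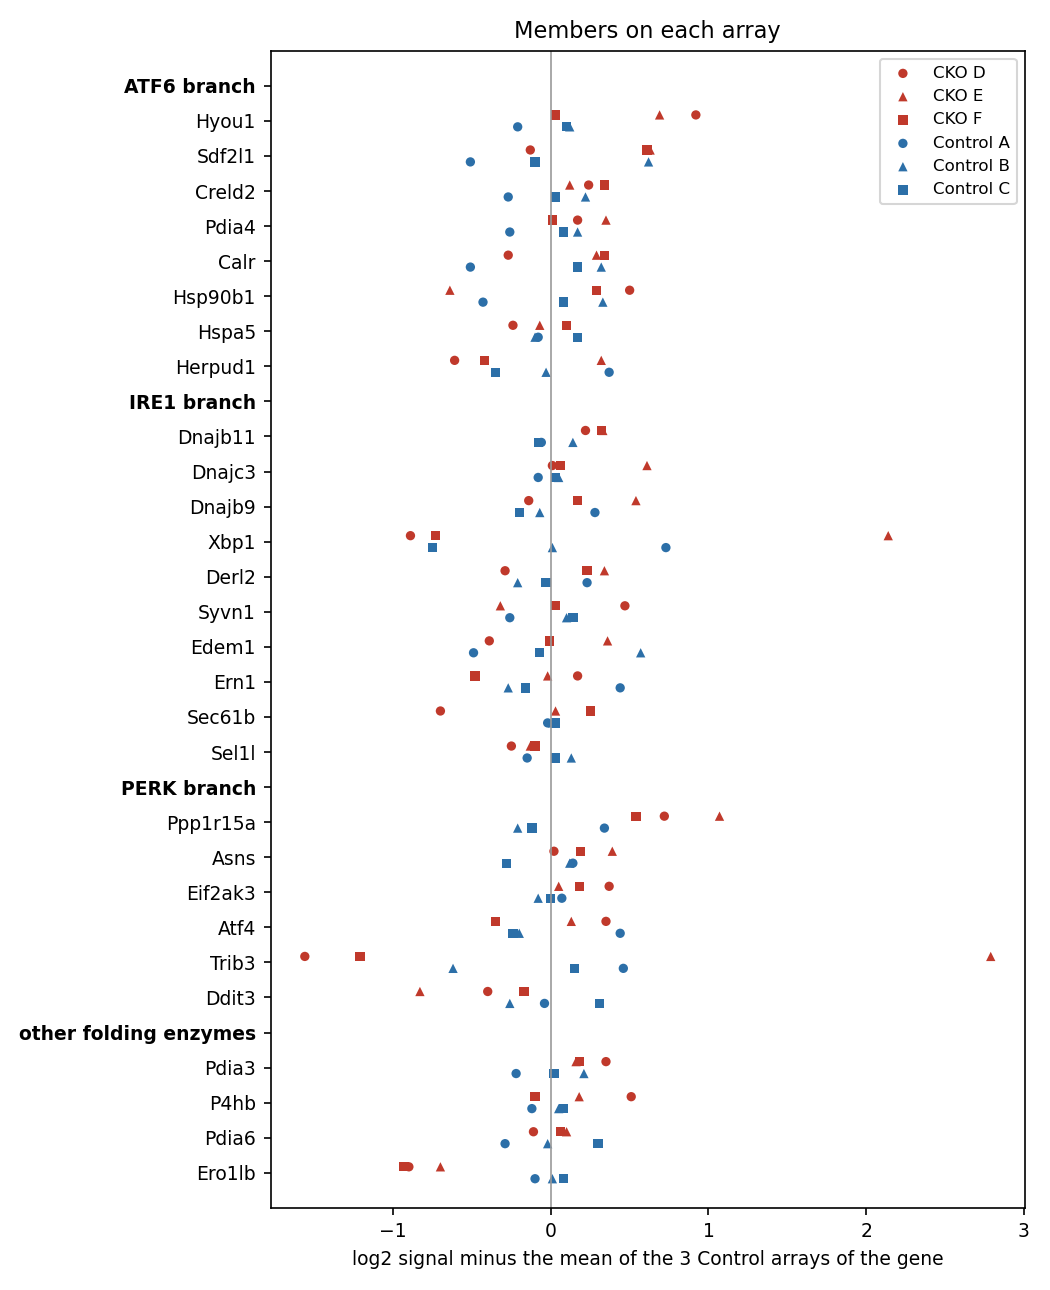
Log2 signal of each tested member on each array minus the mean of its 3 Control arrays, with CKO arrays in red above Control arrays in blue. CKO and Control points mix for 25 of the 28 members, and CKO array E (red triangles) reaches farthest to the right for Xbp1 and Trib3.

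Some members varied widely between single arrays of 1 group. Over the 6 arrays the members had a median range of 0.785 on the log2 scale, against 0.81 for all genes. Trib3 spanned 4.35 and Xbp1 3.02, and 0.72% and 2.69% of all genes had a wider range. The narrowest was Sel1l at 0.38. CKO array E was the highest of the 6 arrays for 10 of 28 members, where this held for 22.4% of all genes, and the lowest for 3, where this held for 31.1%.

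Against the mean of the other 5 arrays, array E was 3.35 higher for Trib3 (10.2-fold) and 2.46 higher for Xbp1 (5.51-fold). It was 0.82 higher for Ppp1r15a, 0.60 for Dnajc3, 0.53 for Dnajb9 and for Sdf2l1, 0.36 for Derl2, 0.35 for Asns, 0.32 for Pdia4 and 0.22 for Dnajb11. For Sdf2l1 array E (7.86) was barely above Control B (7.85) and CKO F (7.84). The same held for Dnajb11, with 11.16 on E and 11.15 on F. These are values of the main features, and by the further Dnajb9 feature array E (7.89) was not the highest. Array E was the lowest array for Hsp90b1 (-0.80), Ddit3 (-0.72) and Syvn1 (-0.41). Xbp1 and Trib3 were thus high on the array where Ddit3 and Hsp90b1 were lowest. These are values of 1 sample, noticed after the data were seen and without a replicate.

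Array E also stood apart in marker genes of several cell types, and in both directions, and fewer cells of a type and less RNA per cell cannot be told apart in such samples. Of 13 luminal markers 11 were measured, and 8 of these were highest on E. Their summed linear signal was 21097 to 42412 in CKO, with E the highest, and 25496 to 29254 in Control, and Calb1 and Krt13 were not above background on enough arrays. The luminal markers Ltf and Lpar3 were instead lowest on E. Of 10 glandular markers 8 were measured, with sums of 2763 to 9056 in CKO, E again the highest, and 2529 to 7660 in Control, although 2 of the 8 were highest on E; Foxa2 and Prss28 were not measured. Stroma markers, 11 of 16 measured and without Pdgfra, Hand2, Hoxa10, Hoxa11 and Postn, summed to 1159 (F) to 7557 (D) in CKO and to 2449 to 3398 in Control. Array E stood at 4256, above every Control array, with 5 of the 11 highest there. Endothelial markers, 7 of 10 measured and without Pecam1, Tie1 and Robo4, summed to 329 (F) to 1135 (E) in CKO and to 523 to 583 in Control, with 4 of the 7 highest on E. The part of any of these in the values of Xbp1, Trib3 or other members was not tested. Plasma cells, which are rich in Xbp1, had 2 of 11 markers measured, with sums of 87 to 128 in CKO and 93 to 133 in Control, and Jchain was below the filter.

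As for the samples as a whole, the array medians of raw signal ran from 79.7 to 82.1 in CKO and from 82.4 to 87.6 in Control, with 17156 to 17461 and 16620 to 17536 features above background. Of 12 pan-epithelial markers 11 were measured (Epcam was not), with summed signals of 42656 (E, the lowest of all arrays) to 56328 in CKO and 47677 to 52648 in Control, and 0 of 6 neutrophil markers. The mean correlation of array E with the other arrays was 0.936, below that of every other array. Bmpr1a, the deleted gene, differed by -0.60 (95% confidence interval -1.12 to -0.07) with all CKO arrays below all Control arrays and an adjusted p of 0.977. Whether its feature lies in the deleted exon is not known here.

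Other genes of ER proteostasis were described as 6 lists chosen by function, 161 genes in all, of which 135 were measured. By limma 0 of the 135 passed in either direction, 7 had an unadjusted p under 0.05 (5.19%, against 4.72% of all genes), and 65 lay higher in CKO with a median of -0.005. Other folding and disulfide enzymes had 10 of 23 higher (median -0.061), N-glycan processing genes 9 of 15 (0.094) and further degradation genes 10 of 21 (-0.029). Translocation genes had 10 of 23 higher (-0.015), other ATF4 targets and stress kinases 18 of 31 (0.069), and other sensors and regulators 8 of 22 (-0.030).

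**Figure D4:**
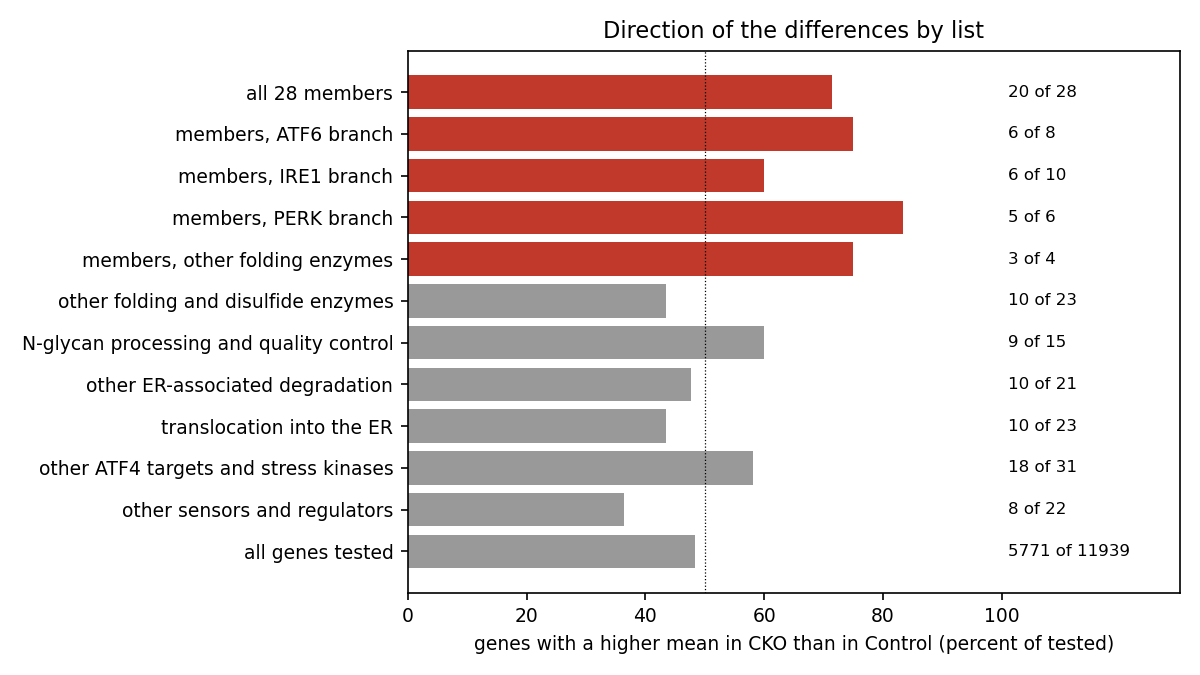
Percent of tested genes with a higher mean in CKO than in Control, for all 28 members and their branches (red) and for the 6 other lists and all genes (grey), with the counts at the right. Members stood at 71.4% and all genes at 48.3%; with median scaling, which lowers all genes together, these were 53.6% and 39.0%.

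The other folding and disulfide enzymes held 3 of the 7 unadjusted calls, all with lower means in CKO. Txndc12 (ERp18), a thioredoxin of the ER, had 9.16, 9.16 and 9.35 in CKO, against 9.79, 9.81 and 9.84 in Control, a difference of -0.59 (SE 0.15, adjusted p 0.977). Prdx4, a peroxiredoxin that oxidises disulfide isomerases alongside the ERO1 oxidases, had 10.83, 10.94 and 10.95 in CKO, against 11.34, 11.38 and 11.36 in Control. The difference was -0.45 (SE 0.15, adjusted p 0.977), and in both genes the groups did not overlap and differed by more than the spread of their arrays. Fkbp9, a prolyl isomerase, differed by -0.83 (SE 0.34), also without overlap. In this list 4 of 23 genes lay lower on every CKO array than on any Control array (17.4%), against 5% of all genes, and 0 of 23 lay higher on every one. Disulfide isomerases among the members had means on the other side, with differences of 0.22 for Pdia3, 0.19 for P4hb, 0.18 for Pdia4 and 0.02 for Pdia6. Their groups all overlapped. With array weights Pdia4 (-0.041) and P4hb (-0.038) fell below 0, while Pdia3 (0.071) and Pdia6 (0.058) stayed above it.

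Among other ATF4 targets and stress kinases, Atf3, a stress-induced repressor, had 9.92, 9.05 and 9.11 in CKO, against 8.41, 8.32 and 8.48 in Control, a difference of 0.96 (SE 0.26, adjusted p 0.977). Aldh18a1, an enzyme of proline synthesis, differed by 0.71 (SE 0.23), and neither gene's groups overlapped. Cth, which makes cysteine, differed by -0.86 (SE 0.33) with overlap and was above background on 2 CKO arrays and 3 Control arrays.

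The remaining lists held 1 unadjusted call, Fam8a1. Ganab, a glucosidase of glycoprotein folding, differed by 0.34, Mcfd2 by 0.45 and Edem2 by -0.42. Of the degradation genes Fam8a1, a cofactor of HRD1, differed by -0.51 (SE 0.20), Herpud2 by 0.37 and Aup1 by 0.27. The translocation genes Srp9, Sec11c and Spcs2 differed by -0.35, -0.41 and -0.33; Spcs2 was above background on 1 CKO array and 2 Control arrays. Creb3l2, a transmembrane factor related to ATF6, differed by 0.48, Wfs1 by 0.23 and Bbc3, a proapoptotic target, by -1.06 (SE 0.74). All of these had an adjusted p of 0.977.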

How the data were processed

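The authors deposited 1 Illumina scanner table per array with, per the file headers, an intensity averaged over beads, a bead count and a detection p-value for each of 45281 features; no background subtraction or scaling had been applied, as judged from the values. A deposited table of processed intensity values (background-subtracted and quantile-normalised, as judged from its values) served as an alternative. No source used here gives the scanner software.

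Background was removed with neqc (limma 3.58.1, R 4.3.3), which fits normexp to negative controls estimated here through the detection p-values, adds 16, quantile-normalises and takes log2; the added constant shrinks differences of dim genes. Features above background (detection p-value under 0.05) on at least 3 arrays were kept, and the one with the highest mean stood for its gene. Names came from the RefSeq table of GRCm38.p6 by accession (29370 features) or symbol (6962); 8949 kept the file's name, of which those with several names were left out. CKO was compared with Control by lmFit and eBayes, two-sided, adjusted over 11939 genes at 0.05, and single members by an exact two-sided permutation test. The fit, but not the normalisation, was tested on simulated data. Its pass mark was set on planted differences larger than that of any member. It therefore does not show how often differences as small as those of the members would be found.

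The members and lists were chosen with earlier results of these data known. Values on every array are given for members whose groups did not overlap, up to 8 members a direction with the smallest unadjusted p, and a fixed set of sensors, chaperones and targets; of each other list, the 3 genes with the smallest unadjusted p are named. The number of arrays limits the precision. Alternatives were other background corrections, scalings, filters, probe rules and variance models, array weights, and leaving out each array.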

Additional observations from a re-analysis of the deposited data

How the results depend on the processing

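No member passed the test in either direction under any of 16 alternatives. The smallest adjusted p was 0.0948, for Ero1lb with array weights. That setting gave an unadjusted p under 0.05 for 12.29% of all genes, against 4.72% in the main setting. Over all genes, those higher in CKO numbered 2 in the main setting, 1 with normexp without controls, no background correction, median scaling, cyclic loess or the deposited intensities, 0 with no filter or the strict filter, 5 with array weights, and between 0 and 1 when 1 array was dropped; the number lower was 0 throughout. The median difference of the members stayed above 0, from 0.024 (median scaling) to 0.197 (without F). Without array E it was 0.038 against 0.017 for all genes, and 14 of 27 members lay above the median of all genes. Of 28 members, 14 kept their sign under every alternative that tested them and 11 of those moved by over 1.5 times when an array was left out. With all arrays kept, array weights turned Hspa5 to 0.10, Pdia4 to -0.041, Xbp1 to -0.49, Sec61b to 0.12, Syvn1 to -0.010, Atf4 to -0.12, Trib3 to -0.52 and P4hb to -0.038. Median scaling, which moved the median of all genes to -0.077 from -0.011, put below 0 some small differences, giving Hsp90b1 -0.048, Syvn1 -0.041, Atf4 -0.046, Trib3 -0.077 and Pdia6 -0.072; relative to that median, 21 of 28 members lay higher, against 20 in the main setting. Cyclic loess turned Trib3 to -0.016, Pdia6 to -0.0097 and Edem1 to 0.0011, the deposited intensities Edem1 to 0.033, and the mean of probes Atf4 to -0.16. With single arrays left out, differences ran from -0.15 to 0.019 for Hspa5, -0.17 to 0.40 for Hsp90b1, -0.13 to 0.32 for Calr, -0.25 to 0.11 for Ern1, -0.81 to 0.71 for Xbp1, -0.34 to 0.14 for Sec61b, -0.26 to 0.17 for Edem1, -0.14 to 0.25 for Syvn1, -0.029 to 0.29 for Derl2, -0.11 to 0.26 for Atf4, -1.39 to 0.79 for Trib3 and -0.12 to 0.17 for Pdia6. Edem1 was tested in only 3 of these fits, without A, without C and without D, because it was below the filter in the others. The filters also change how many genes share the adjustment, and the cause was not tested for any of these settings. The strict filter left 4 members untested. No paired analysis was possible because the replicate letters of the groups are not shared. Signal over background limits Hspa5, Eif2ak3, Edem1 and Ero1lb.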
